A study of Mus musculus with 6 samples.

Results

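Retinoic acid is made from vitamin A inside cells. Retinol enters through the membrane receptor Stra6, is oxidized to retinal by dehydrogenases such as Rdh10, and is oxidized again to retinoic acid by the Aldh1a enzymes. The acid is held in the cytosol by the binding proteins Crabp1 and Crabp2, acts through nuclear receptors of the RAR and RXR families, and is broken down by the Cyp26 hydroxylases. In the ovary the pathway is known for its part in the entry of germ cells into meiosis, and aldehyde dehydrogenase activity is widely used as a marker of progenitor-like cells in epithelia, the ovarian surface among them.

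The 9 genes described here are Stra6, Rdh10, Aldh1a1, Aldh1a2, Aldh1a3, Crabp1, Crabp2, Cyp26a1 and Cyp26b1. They were chosen by their place in this pathway, and each was read from the probe set that the platform annotation pairs with its symbol. All 9 were found, on 9 probe sets, among 22180 named genes. Levels were compared between 2 sorted populations of ovarian surface epithelium, the cell layer that covers the ovary. The first was EGFP-high (3 arrays) and the second EGFP-low (3 arrays), and both came from untreated female mice of 8 to 12 weeks that carry Lgr5-eGFP-CreERT2, a construct that places EGFP and an inducible Cre recombinase under the control of Lgr5, a receptor gene known as a stem cell marker of the intestine. Each array held material pooled from 8 mice, and the design text calls the 3 arrays of a population technical replicates, so the p-values rest on array-to-array spread alone, and that spread may be technical. The EGFP-low cells carry the same construct and are low in EGFP, not necessarily without it.

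RNA was amplified and hybridized to Affymetrix Mouse Gene ST 2.0 arrays, and values are log2 expression as the authors deposited them, with array medians from 3.76 to 3.85. The number of arrays limits the precision. The 6 columns were not 6 separate readings: EGFP-high array 2 equaled the mean of arrays 1 and 3, and EGFP-low array 1 equaled the mean of arrays 2 and 3 plus 0.75 times the difference of EGFP-high array 3 minus array 1, on every probe set within 2e-04. The columns therefore hold 4 independent dimensions, and an SD over the 3 columns of a population is not a measure of 3 separate readings. Differences (EGFP-high minus EGFP-low, log2) were tested with limma over all 22180 genes, with a term for array sets inferred from these 2 relations, which leaves 2 residual degrees of freedom (the set-adjusted fit). A group-only fit counts 4, more than the columns hold. It is quoted beside the set-adjusted fit and not used to call a change. In the set-adjusted fit EGFP-high array 2 is a set of its own and does not enter the difference. Leaving out EGFP-high array 1 or EGFP-low array 1 leaves only EGFP-high array 3 against EGFP-low arrays 2 and 3. Leaving out EGFP-high array 3 leaves only EGFP-high array 1 against EGFP-low array 1. A fit without 1 array can therefore rest on 1 EGFP-high array. Lgr5, the gene sorted on, was higher in EGFP-high cells by 1.10 (95% interval 0.62 to 1.57), which checks the labels. Its limma adjusted p was 0.751 in the set-adjusted and 0.0151 in the group-only fit. The set-adjusted fit thus did not call the gene sorted on, and a gene it does not call is not shown to be unchanged.

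Of the 9 retinoic acid genes, 0 passed an adjusted p of 0.05 in the set-adjusted limma fit (lowest adjusted p = 0.787, highest 0.981). Over all named genes that fit called 1 gene, or 0.00451%. At an unadjusted p under 0.05 it had 3 of the 9, Stra6, Crabp2 and Cyp26b1, against 5.92% of all genes. The same 3 were the members past 1.5-fold, Cyp26b1 on the higher side and Stra6 and Crabp2 on the lower, against 4.89% of all genes in either direction (2.19% higher, 2.7% lower). The group-only limma fit called 2 of the 9, Stra6 (lower) and Cyp26b1 (higher), against 6.67% of all genes (3.9% higher, 2.77% lower). The 2 populations did not overlap for 6 of the 9 (4 higher, 2 lower), against 33.2% of all genes (19.3% higher, 13.9% lower). The median difference of the 9 was −0.07, with 4 above 0 and 5 below, beside a median of 0.02 over all genes. A permutation test of 3 arrays against 3 cannot give a two-sided p under 0.10, so none is given for single genes.

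**Figure D1:**
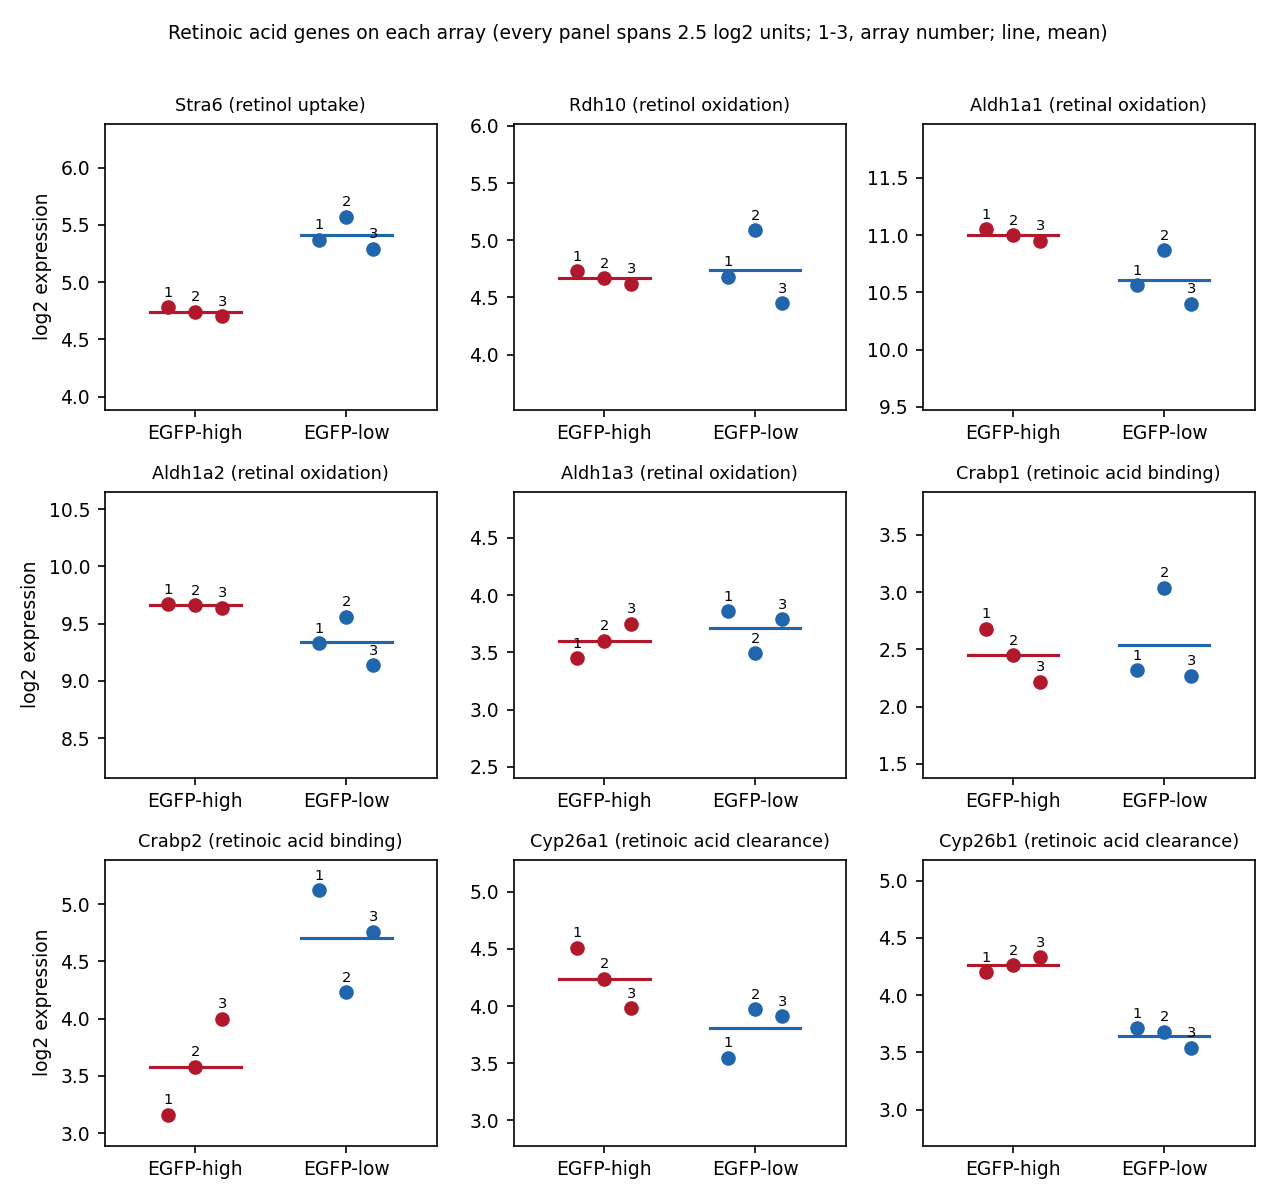
Log2 expression of the 9 genes on each array, EGFP-high in red and EGFP-low in blue, with the array number beside each point and a line at the mean. Every panel spans the same range of log2 units. The populations stand apart for Stra6, Crabp2 and Cyp26b1, and by a narrow gap for Aldh1a1, Aldh1a2 and Cyp26a1. They overlap for Rdh10, Aldh1a3 and Crabp1.

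Retinol uptake was represented by Stra6 (probe set 17517848), the receptor for retinol-binding protein that brings retinol into the cell. Stra6 read 4.78, 4.74 and 4.70 in the EGFP-high arrays, against 5.37, 5.57 and 5.29 in the EGFP-low arrays. Every EGFP-high array lay below every EGFP-low array. The means were 4.74 ± 0.04 in EGFP-high and 5.41 ± 0.14 in EGFP-low cells (SD, n = 3 columns each, not separate readings). The difference was −0.67 (95% interval −1.16 to −0.19), or 1.6-fold lower. Its limma adjusted p was 0.787 in the set-adjusted and 0.0223 in the group-only fit. Leaving out any array kept the difference between −0.74 and −0.59, the narrowest range among the 5 of the 9 genes that read lower. In the authors' deposited table Stra6 had a ratio of 0.478 for EGFP-high over EGFP-low, a larger difference than in the value table.

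Rdh10 (probe set 17211258), the dehydrogenase that makes retinal from retinol in the embryo, did not separate the populations. It read 4.73, 4.67 and 4.62 in EGFP-high and 4.68, 5.09 and 4.45 in EGFP-low cells. The EGFP-low arrays lay on both sides of the EGFP-high arrays. The difference was −0.07 (−0.65 to 0.51), and it was 0.11 without EGFP-low array 2. It was 0.05 for EGFP-high array 1 against EGFP-low array 1 alone, the fit without EGFP-high array 3.

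The 3 retinal dehydrogenases that make retinoic acid were read at very different brightness. Aldh1a1 (probe set 17358103) read 11.05, 11.00 and 10.95 in EGFP-high and 10.56, 10.87 and 10.40 in EGFP-low cells. Aldh1a2 (probe set 17519112), the main retinoic acid-forming enzyme of the embryo and of mesothelium, read 9.67, 9.66 and 9.64 in EGFP-high and 9.33, 9.56 and 9.14 in EGFP-low cells. Both were bright in both populations: 99.8% of named genes had a lower mean than Aldh1a1 in EGFP-high and 99.7% in EGFP-low cells, and 99.2% and 99.0% had a lower mean than Aldh1a2. Probe sets differ in how strongly they bind, so these shares place a signal on the array and do not order transcripts by abundance.

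For both bright enzymes each EGFP-high array lay above each EGFP-low array, with EGFP-low array 2 close below. Aldh1a1 was 0.39 higher (−0.14 to 0.91) and Aldh1a2 0.31 higher (−0.20 to 0.82). Neither passed the test (limma adjusted p = 0.856 and 0.876 in the set-adjusted, 0.121 and 0.155 in the group-only fit). Without 1 array the differences ran from 0.29 to 0.52 for Aldh1a1 and from 0.21 to 0.42 for Aldh1a2. Aldh1a7, a close paralogue of Aldh1a1 in mice whose transcripts may share probes with it, read 6.25, 6.22 and 6.20 in EGFP-high and 5.68, 6.02 and 5.42 in EGFP-low cells. It differed by 0.52 (−0.04 to 1.08).

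Aldh1a3 (probe set 17491941), the third enzyme of the group, was dim. It read 3.45, 3.60 and 3.75 in EGFP-high and 3.86, 3.49 and 3.79 in EGFP-low cells, and the populations overlapped. The difference was −0.11 (−0.64 to 0.41). It was 0.11 for EGFP-high array 3 against EGFP-low arrays 2 and 3 alone, the fit without EGFP-high array 1 or EGFP-low array 1. To show what a dim probe set reads, 1394 olfactory and vomeronasal receptor genes, which are not expected in ovary, were taken as a yardstick. Their 95th percentile was 3.81 in EGFP-high and 3.98 in EGFP-low cells, and Aldh1a3 lay below it in both.

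**Figure D2:**
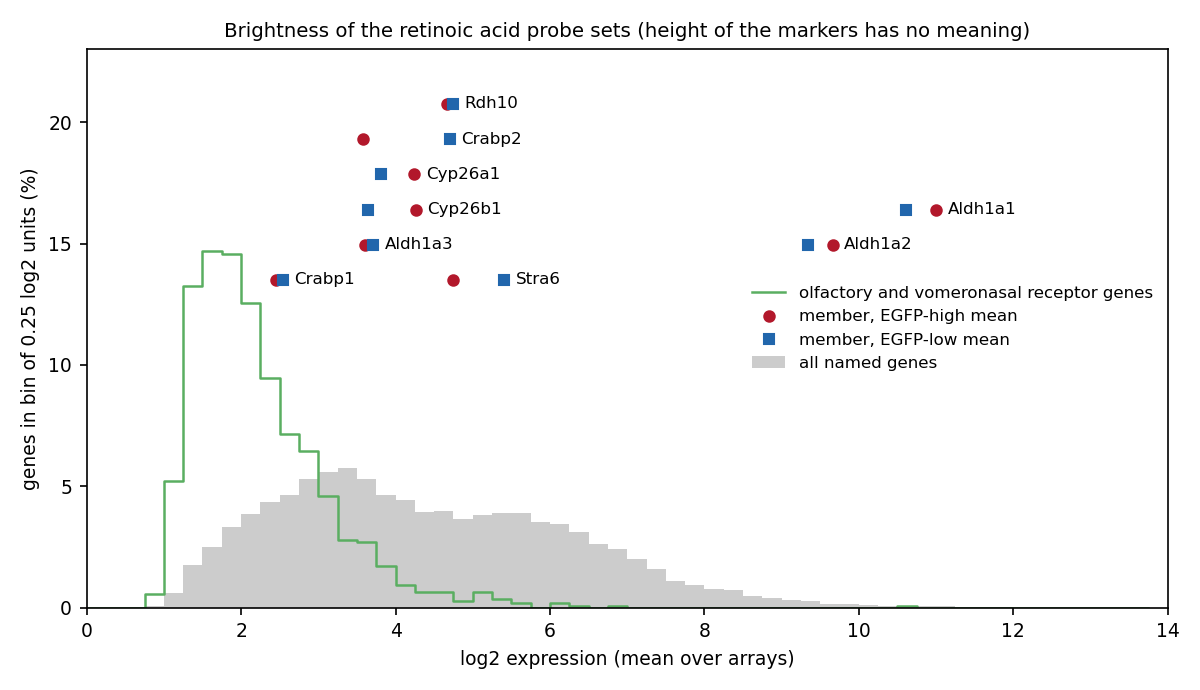
Mean log2 expression of each of the 9 genes (red circles, EGFP-high; blue squares, EGFP-low) over the distribution of all 22180 named genes (grey bars, percent of genes per bin) and of 1394 olfactory and vomeronasal receptor genes (green line). Aldh1a1 and Aldh1a2 lie at the bright end, and Crabp1 lies within the receptor genes.

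Against that yardstick, 4 of the 9 genes were above the 95th percentile in both populations (Aldh1a1, Aldh1a2, Stra6 and Rdh10). A further 3 were above it in 1 population: Crabp2 in EGFP-low cells, and Cyp26a1 and Cyp26b1 in EGFP-high cells. Aldh1a3 and Crabp1 were above it in neither, so a lack of difference in these dim genes was not informative.

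Of the cytosolic binding proteins, Crabp1 was dim in both populations and Crabp2 in EGFP-high cells only, and only Crabp2 separated the populations. Crabp2 (probe set 17398895), which carries retinoic acid to its nuclear receptors, read 3.16, 3.58 and 4.0 in EGFP-high cells, against 5.12, 4.23 and 4.76 in EGFP-low cells. All EGFP-high arrays lay below all EGFP-low arrays, with a wide spread inside each population. The means were 3.58 ± 0.42 in EGFP-high and 4.70 ± 0.45 in EGFP-low cells (SD, n = 3 columns each, not separate readings). The difference of −1.12 (−1.93 to −0.32) was the largest among the 9, but the EGFP-high mean lay below the dim yardstick, so its size is not a fold change between measured levels. It did not pass the test (limma adjusted p = 0.787 in the set-adjusted, 0.0719 in the group-only fit).

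The size of the Crabp2 difference varied between the array sets. It was −1.96 for EGFP-high array 1 against EGFP-low array 1 alone, the fit without EGFP-high array 3. It was −0.50 for EGFP-high array 3 against EGFP-low arrays 2 and 3 alone. The fits without EGFP-low array 1 and without EGFP-high array 1 both reduce to that comparison. In the authors' deposited table the ratio of EGFP-high over EGFP-low was 0.543 for Crabp2, a smaller difference than in the value table. By those ratios Stra6, at 0.478, differed more than Crabp2.

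Crabp1 (probe set 17517416), the other binding protein, read 2.68, 2.45 and 2.22 in EGFP-high and 2.32, 3.04 and 2.27 in EGFP-low cells. These lie within the range of the receptor genes, 70.2% of which had a lower mean in EGFP-high and 69.3% in EGFP-low cells. The difference of −0.09 (−0.79 to 0.60) ran from −0.43 to 0.36 when an array was left out.

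The clearance enzymes Cyp26a1 and Cyp26b1, which hydroxylate retinoic acid, both read higher in EGFP-high cells. Cyp26b1 (probe set 17468286) read 4.20, 4.26 and 4.33 in EGFP-high cells, against 3.71, 3.68 and 3.54 in EGFP-low cells. The populations did not overlap, and the EGFP-low mean lay below the dim yardstick. The means were 4.26 ± 0.06 in EGFP-high and 3.64 ± 0.09 in EGFP-low cells (SD, n = 3 columns each, not separate readings). The difference was 0.62 (0.16 to 1.09), with 0.49 to 0.72 when an array was left out. Its limma adjusted p was 0.816 in the set-adjusted and 0.0206 in the group-only fit. In the authors' deposited table the ratio of EGFP-high over EGFP-low was 1.64 for Cyp26b1.

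Cyp26a1 (probe set 17359088) read 4.51, 4.24 and 3.98 in EGFP-high cells, against 3.55, 3.97 and 3.91 in EGFP-low cells. EGFP-high array 3 and EGFP-low array 2 nearly met. The difference was 0.43 (−0.16 to 1.02), with a limma adjusted p of 0.857 (set-adjusted) and 0.174 (group-only). It was 0.95 for EGFP-high array 1 against EGFP-low array 1 alone, the fit without EGFP-high array 3. It was 0.04 for EGFP-high array 3 against EGFP-low arrays 2 and 3 alone, the fit without the first array of either population.

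**Figure D3:**
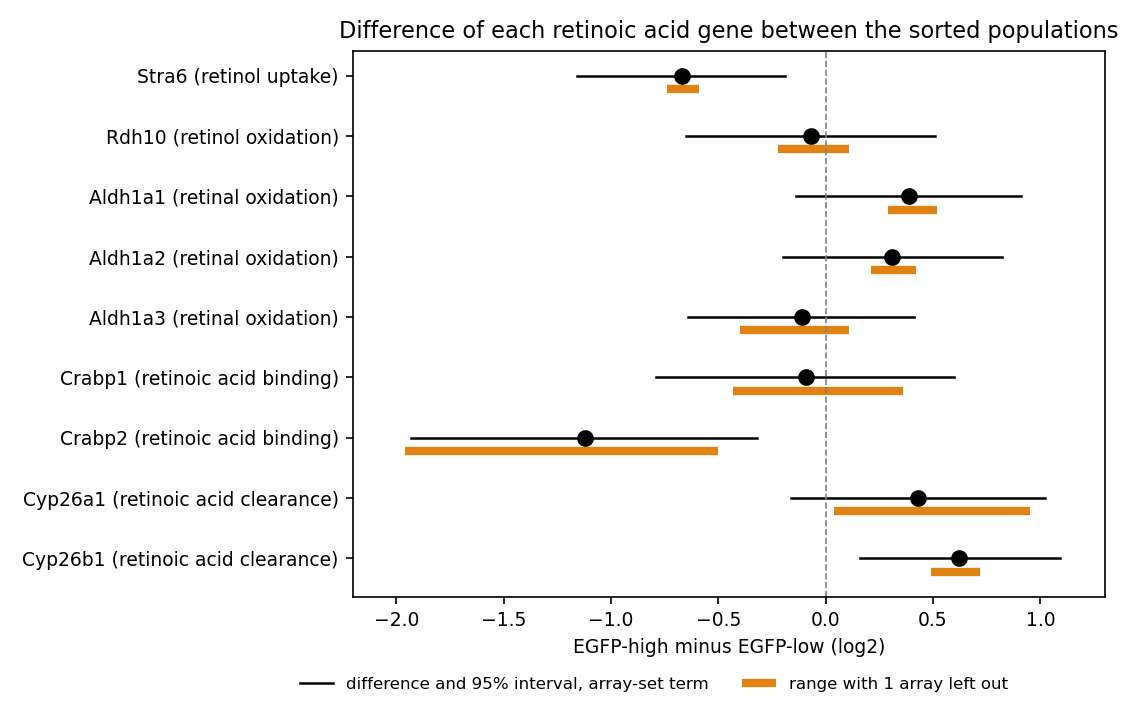
Difference of each gene, EGFP-high minus EGFP-low in log2 units (points), with its 95% interval from the set-adjusted limma fit (black lines) and its range over the fits that leave out 1 array (orange bars). The intervals of Stra6, Crabp2 and Cyp26b1 lie to 1 side of 0, and the orange bar of Crabp2 runs from −1.96 to −0.50. Some of the fits that leave out 1 array rest on 1 EGFP-high array.

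Cyp26a1 is a textbook target of retinoic acid receptors, which bind direct repeats of a 6-base half-site. RefSeq promoter windows (GRCm38.p6, 250 bases before to 50 after a start site) were matched by symbol to 6 of the 9 genes, in 10 windows. They were searched on both strands for 2 half-sites with 5 bases between them. A half-site was AGGTCA or else AGTTCA, and likewise GGTTCA or else GGGTCA, in any combination. Such a repeat was found in 0.0974% of all 32851 windows. Of the 10 windows it was in 1, that of Cyp26a1, and among 78 windows of other retinoid genes it was in 1, that of the receptor gene Rarb. With 2 bases between the half-sites it was in 0.268% of all windows and in 0 of the 10, and with 1 base in 0.222% and in 0 of the 10. Of the 78 other retinoid windows, the search with 1 base matched 1, that of Bco1, and the search with 2 bases matched 0. The repeats of both genes are shown because theirs were the only matches with 5 bases among the 10 windows and the 78. They are written on the strand where they read forward, with the half-sites in capitals.
Cyp26a1, chr19:37697776-37697792, minus strand: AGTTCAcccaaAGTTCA
Rarb, chr14:16575513-16575529, minus strand: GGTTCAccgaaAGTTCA

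The 250 bases before the start site follow for the same genes on the strand of the gene, with the half-sites in capitals. The repeat lies 32 to 16 bases before the start of Cyp26a1 in the window and runs against the gene, and 53 to 37 bases before that of Rarb and runs with it. Both repeats lie inside the RefSeq span of their gene: the start of that span is upstream of the repeat in Cyp26a1, and the window of Rarb is at an internal start site.
Cyp26a1, chr19:37697558-37697807, plus strand: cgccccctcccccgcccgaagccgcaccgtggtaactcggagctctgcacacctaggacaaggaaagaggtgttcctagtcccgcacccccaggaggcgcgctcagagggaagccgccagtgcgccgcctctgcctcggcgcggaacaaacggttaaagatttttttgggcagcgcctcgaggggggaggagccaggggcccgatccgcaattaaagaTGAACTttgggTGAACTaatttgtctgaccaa
Rarb, chr14:16575477-16575726, minus strand: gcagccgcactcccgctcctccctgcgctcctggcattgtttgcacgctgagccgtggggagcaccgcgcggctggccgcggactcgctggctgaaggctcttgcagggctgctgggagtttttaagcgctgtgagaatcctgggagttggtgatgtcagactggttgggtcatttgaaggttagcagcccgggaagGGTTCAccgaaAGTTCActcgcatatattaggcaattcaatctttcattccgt

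The window of Cyp26b1 held none of these repeats. The part of it before the RefSeq gene is given for comparison with that of Cyp26a1, the other clearance enzyme. Its only capitals mark TATAAA, which was searched on the strand of the gene and stands in the first 250 bases of 7.59% of all windows.
Cyp26b1, chr6:84593909-84594060, minus strand: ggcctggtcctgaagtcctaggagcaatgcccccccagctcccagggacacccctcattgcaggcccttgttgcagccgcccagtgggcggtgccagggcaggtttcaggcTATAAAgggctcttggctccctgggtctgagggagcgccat

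Rarb, the retinoic acid receptor whose own gene is induced by retinoic acid, was the other gene with a match at 5 bases among the windows searched. It read 3.66, 3.58 and 3.49 in EGFP-high cells, against 3.99, 3.98 and 4.24 in EGFP-low cells, without overlap and close to the dim yardstick. The difference was −0.49 (−0.98 to −0.0033), with a limma adjusted p of 0.84 (set-adjusted) and 0.0446 (group-only). Among the other receptors, Rxra differed by 0.44 (−0.12 to 0.99), Rara by 0.19 (−0.30 to 0.68) and Rarg by 0.06 (−0.51 to 0.63). All 10 receptor and partner genes together had a median of −0.01, with 5 above 0 and 5 below. They include Fabp5, Ppard, Rora and Rorb besides the RAR and RXR genes.

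The wider retinoid pathway was read from lists of carriers, storage, interconversion and carotenoid genes, other aldehyde dehydrogenases, other clearance enzymes, receptors, cofactors and induced genes. Of these lists 76 of 82 genes were read and the others were not analysed here. The other aldehyde dehydrogenases include enzymes of other aldehydes, such as Aldh9a1 and Aldh2. The set-adjusted limma fit called 0 of the 76, with 5 at an unadjusted p under 0.05 (3 higher, 2 lower), against 5.92% of all genes. The group-only fit called 4: Rdh1 and Aldh9a1 were higher and Lpl and Rarb lower, against 6.67% of all genes. Both counts were near those shares. The median difference was 0.04, with 42 genes above 0 and 34 below.

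Of 19 genes of retinol and retinal interconversion 12 were above 0, with a median of 0.10. Rdh1, a retinol dehydrogenase, read 5.51, 5.50 and 5.48 in EGFP-high cells, against 4.68, 4.83 and 4.58 in EGFP-low cells, with no overlap and a difference of 0.80 (0.33 to 1.27). Rdh11, which reduces retinal, differed by 0.57 (0.04 to 1.10), and Rdh9 by 0.62 (−0.09 to 1.32). Rdh11 differed by 0.29 for EGFP-high array 3 against EGFP-low arrays 2 and 3 alone. It differed by 0.94 for EGFP-high array 1 against EGFP-low array 1 alone. Rdh9 differed by 0.35 without EGFP-low array 2. Rdh1 and Rdh9 belong to a cluster of similar genes, so their probes may share signal. Dhrs3, a retinal reductase induced by retinoic acid, differed by 0.32 (−0.23 to 0.87).

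Among 11 other aldehyde dehydrogenases 7 were above 0, with a median of 0.19. Aldh9a1, which oxidizes aminoaldehydes, read 7.62, 7.53 and 7.45 in EGFP-high cells, against 6.59, 6.89 and 6.54 in EGFP-low cells. All EGFP-high arrays were higher, and the difference of 0.86 (0.36 to 1.36) was the largest of the 76. Its limma adjusted p was 0.751 (set-adjusted) and 0.0206 (group-only). Aldh7a1 differed by 0.39 (−0.10 to 0.89), while Aldh2, the mitochondrial enzyme that clears acetaldehyde, differed by −0.01 (−0.62 to 0.60).

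Carriers and storage genes lay on both sides of 0. Rbp4, the retinol carrier of plasma that Stra6 binds, differed by 0.45 (−0.21 to 1.11). For EGFP-high array 3 against EGFP-low arrays 2 and 3 alone it differed by −0.03. Rbp2, an intestinal retinol carrier, differed by −0.34 (−0.80 to 0.12). Lpl, a lipase that can release retinol from its esters, read 3.14, 3.15 and 3.16 in EGFP-high and 3.65, 3.74 and 3.53 in EGFP-low cells, and differed by −0.49 (−0.96 to −0.03). Both readings of Lpl lay below the dim yardstick, and the difference was −0.24 with the mean of its 2 probe sets. Lrat, which esterifies retinol for storage, differed by −0.14 (−0.62 to 0.33). The 3 genes of carotenoid uptake and cleavage, Bco1, Bco2 and Scarb1, were all below 0 (−0.17, −0.34 and −0.21), with intervals that span 0. Rbp2, Lrat, Bco1 and Bco2 also lay below the dim yardstick in both populations.

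Of 17 genes known to be induced by retinoic acid, apart from the 9, 6 were above 0 and 11 below, with a median of −0.02. Over all named genes 11927 of 22180 were above 0. Of the 17, only 7 read above the dim yardstick in EGFP-high and 8 in EGFP-low cells, so the count rests largely on dim genes. After Rarb the smallest p-values were those of Foxa1, at −0.53 (−1.19 to 0.14), and Hoxb1, at −0.33 (−0.81 to 0.14). Tgm2 differed by 0.28 (−0.18 to 0.73) and Stra8, the germ cell gene of meiotic entry, by 0.03 (−0.50 to 0.56). Foxa1, Hoxb1 and Stra8 lay below the dim yardstick in both populations. The receptor cofactors lay between 0.03 and 0.19, all 6 above 0.

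**Figure D4:**
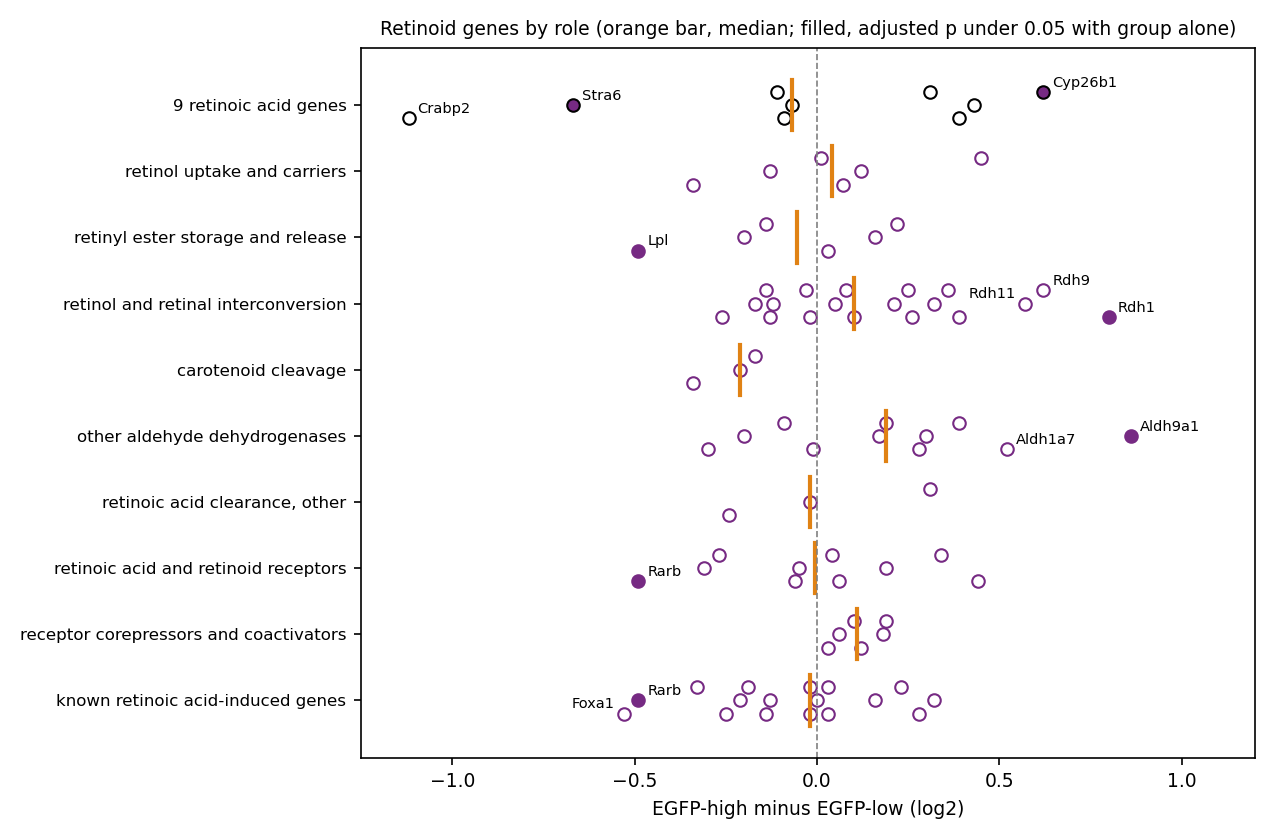
Difference of each retinoid gene, EGFP-high minus EGFP-low in log2 units, by role, with the 9 genes in the top row and 5 genes of 2 lists (Rarb, Dhrs3, Lrat, Nrip1 and Cyp26c1) in 2 rows. Orange bars are medians and filled points passed an adjusted p of 0.05 in the group-only limma fit, which counts more degrees of freedom than the columns hold. None passed in the set-adjusted fit. Medians of the other lists lie between −0.21 and 0.19.

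Both populations were bright in markers of the surface epithelium, and all 12 read above the dim yardstick in both. Their summed linear signal was 11703 to 12079 in EGFP-high and 9689 to 10055 in EGFP-low arrays. The summed signal of 5 marker lists of other cells was lower in EGFP-high arrays, though single members differed the other way. The summed signal was 131 to 194 in EGFP-high against 224 to 397 in EGFP-low arrays for 7 granulosa genes, and 115 to 116 against 187 to 487 for 8 leukocyte genes. It was 617 to 625 in EGFP-high against 694 to 998 in EGFP-low arrays for 8 stromal genes, and 758 to 834 against 1024 to 1366 for 5 theca and luteal genes. The lower theca and luteal sum rested mainly on Cyp11a1, which differed by −4.74. Hsd3b1, dimmer in EGFP-low cells, differed by −2.76, while the bright genes Star and Scarb1 differed by 0.33 and −0.21. For 6 oocyte genes the summed signal was 54 to 58 in EGFP-high and 63 to 71 in EGFP-low arrays. Of these genes 1 read above the dim yardstick in EGFP-high cells (Gdf9, which was higher there) and 0 in EGFP-low cells. The lower oocyte sum is therefore a difference among dim probe sets. Endothelial and oviduct markers overlapped.

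Of the granulosa genes 6 of 7 read lower in EGFP-high cells (not Amh), of the leukocyte genes 7 of 8 (not Cd68), of the stromal genes 7 of 8 (not Thy1), of the theca and luteal genes 3 of 5 (not Star and Cyp17a1), and of the oocyte genes 4 of 6 (not Gdf9 and Bmp15). Thy1 differed by 0.53, Gdf9 by 0.43, Star by 0.33 and Amh by 0.14. Ptprc, carried by all leukocytes, read 2.06 in EGFP-high and 2.43 in EGFP-low cells, and the oocyte coat gene Zp2 read 2.66 in EGFP-high and 3.56 in EGFP-low cells, all below the dim yardstick. Cyp11a1, the first enzyme of steroid synthesis, was the 1 gene that the set-adjusted fit called, at 4.02 in EGFP-high and 8.76 in EGFP-low cells (limma adjusted p = 0.014). The part of these other cells in the readings of Crabp2 and Stra6 was not tested, and in sorted pools fewer cells of a type and less RNA per cell cannot be told apart.

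**Figure D5:**
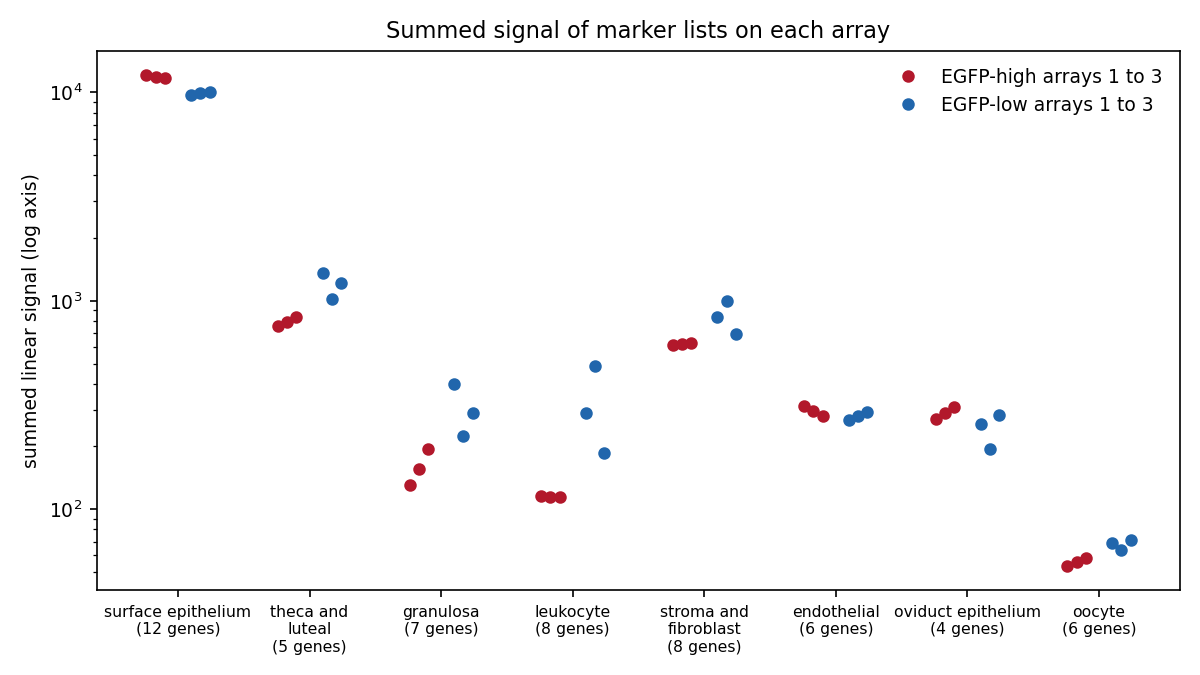
Summed linear signal of each marker list on each array (log axis), EGFP-high in red and EGFP-low in blue, with the number of genes summed. The sum of surface epithelium markers was higher in the EGFP-high arrays, and the sums of granulosa, leukocyte, stromal, theca and luteal, and oocyte markers were lower. The theca and luteal sum rested mainly on Cyp11a1, and the oocyte genes were dim apart from Gdf9 in EGFP-high cells.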

How the data were processed

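Per the submitters' processing notes, Affymetrix Expression Console and RMA gave the values. The authors deposited log2 expression for 41345 probe sets on 6 arrays. RMA corrects background, normalizes by quantiles and summarizes probe sets. No source used here gives the step behind the 2 relations among the columns. For genome build, annotation and versions: not given in the sources used here. A second deposited table holds the authors' linear ratios for 1134 probe sets at 1.5-fold or more, with no p-values (0 that are numbers). No column of values lacked a sample (0 such columns).

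The platform annotation paired 23521 probe sets with 1 symbol, 1820 with several, and 16004 were unnamed here. For 1082 genes with several probe sets the one with the highest mean was read. No filter on dim genes was applied. Fits used limma 3.58.1 in R 4.3.3 (lmFit, eBayes, two-sided, Benjamini-Hochberg over 22180 genes, threshold 0.05), with group and array set as terms. The inferred sets are EGFP-high 1 with EGFP-low 1, EGFP-high 3 with EGFP-low 2 and 3, and EGFP-high 2 alone. No label gives them. The fit was tested on simulated data made with the same array sets, which cannot show whether the inferred sets are right. Alternatives were group alone, the replicate number as a block, other scalings, a filter on dim genes, other probe set rules, other variance priors and leaving out each array.

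Genes named are the 9 members, Lgr5, up to 3 genes of each retinoid list by p and those called with group alone, up to 2 of each marker list, and the nearest patterns. Further list genes were named after their values were seen (Aldh2, Amh, Bmp15, Cd68, Cyp17a1, Dhrs3, Gdf9, Lrat, Nrip1, Ptprc, Rara, Rarg, Star, Stra8, Tgm2 and Thy1). Members, lists and tests were chosen with earlier results of these data known. The deviations of same-numbered arrays from their group means had correlations of −1 for number 1, −0.00652 for number 2 and −0.295 for number 3. They cannot decide whether the numbers pair the arrays. The column relations fix the value for number 1, and the deviation of EGFP-high array 2 is only rounding (SD 2.91e-06).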

Additional observations from a re-analysis of the deposited data

How the results depend on the processing

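Under the alternatives run, each changing 1 choice, the number of the 9 retinoic acid genes past the threshold stayed at 0 except with group as the only term, which called 2. The same setting called 4 of the other retinoid genes, 1479 of all named genes and 17 of the cell type markers. With the replicate block limma called 0 of the 9, 4 of all genes and 2 of the markers. With the mean of all probe sets of a gene it called 0 of all genes (1337 at an unadjusted p under 0.05) and 0 of the markers. Leaving out an array gave 1 to 23 of all genes, with 23 without EGFP-high array 3 and 3 without EGFP-low array 3, and 1 to 2 of the markers. Whether the numbers of the arrays pair them cannot be told from these columns. Crabp2, Stra6, Cyp26b1, Aldh1a1, Aldh1a2 and Cyp26a1 kept their sign under all the alternatives run for them. In the set-adjusted fit, leaving out an array turned the sign of Rdh10 (−0.22 to 0.11), Aldh1a3 (−0.40 to 0.11), Crabp1 (−0.43 to 0.36), Rbp4 (−0.03 to 1.09), Bco2 (−0.91 to 0.42), Bco1 (−0.50 to 0.27), Scarb1 (−0.54 to 0.04), Cyp2s1 (−0.05 to 0.80), Crebbp (−0.05 to 0.24) and Foxa1 (−0.99 to 0.10). Rdh10 and Crabp1 turned without EGFP-low array 2 (0.11 and 0.16). All other turns were in fits that rest on 1 EGFP-high array, so they do not show the effect of 1 array alone. Cyp26c1 differed by −0.02, by 0.03 with each array centred on its median, by 0.05 with quantile normalization, and by −0.55 to 0.68 without an array. The cause was not tested. The filter at the median brightness left out Aldh1a3, Crabp1, Cyp26a1 and Cyp26b1. Signal near the dim yardstick limits what can be read for Aldh1a3 and Crabp1.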

Other observations

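The 3 named genes whose centred values lay closest to those of Crabp2 over the 6 arrays were Atp10a, E330017L17Rik and Fst, with root mean square distances of 0.0822, 0.0877 and 0.099 log2 units, against a spread of 0.663 for Crabp2 itself. Fst, the activin-binding protein on the granulosa list, read 3.83, 4.28 and 4.74 in EGFP-high and 6.04, 5.16 and 5.54 in EGFP-low cells. For Aldh1a1 the closest were Dcun1d4, Pygb and H2-Q4 (0.00825, 0.00835 and 0.0133, against a spread of 0.24). The 6 columns hold 4 dimensions, so such closeness is a description of these arrays.

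Fabp5, which carries retinoic acid to PPAR-delta, stood on 4 probe sets with differences of 0.34, 0.30, 0.88 and 0.47, the brightest being the first. In the authors' deposited table the third had a ratio of 1.88 for EGFP-high over EGFP-low.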
